A study of Homo sapiens with 8 samples.

Results

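The untreated control group consisted of 4 libraries of 8 in the series, the columns labelled con_1 to con_4 of the deposited expression table, named here controls 1 to 4. They were chosen by that label alone. All 8 libraries entered only the recovery of read numbers and gene lengths, and every level below comes from the 4 controls over all 59641 genes of the table. Per the labels they hold RNA of the cell line HCT116, established from a human colorectal cancer, that received no hFGF19, the human form of fibroblast growth factor 19. The other 4 libraries had been exposed to hFGF19 at 100 ng/ml for 72 hours and are not described. The labels do not say whether the 4 controls came from separate cultures, so the spread between them may be technical. Poly(A)-selected bulk RNA was sequenced as paired ends, so for any gene fewer cells with its transcript and less transcript per cell cannot be told apart. The RNA protocol in the labels also speaks of adipose material.

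The marker genes matched the colorectal label only in part. Several genes that define the lining of the colon, such as CDX1, CDX2 and KRT20, were at or near 0 in all 4 libraries. Gastric-type mucins were abundant. A simple epithelial keratin set was abundant too, but simple epithelia of many organs share such keratins, so it does not speak against the label. Details follow the most abundant genes. The libraries are therefore called the untreated controls, or the libraries labelled HCT116, and no other cell type name is given to them. The cause of the low colon genes was not tested.

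The lining of the colon is a single-layered epithelium. CDX1 and CDX2 are homeodomain transcription factors that maintain intestinal identity, stem cells at the crypt base carry LGR5 and ASCL2, and their progeny become absorptive colonocytes, mucus-secreting goblet cells or hormone-secreting enteroendocrine cells. Simple epithelia of many organs share the keratin pair KRT8 and KRT18. Colorectal cancer lines vary in how much of the colon programme they retain.

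Levels are in FPKM, a count of fragments divided by gene length and by library depth, as the authors deposited them, and means are given ± SD over the 4 libraries. The reads counted to genes came to 17778831 in control 1, 18938686 in control 2, 18213587 in control 3 and 20133446 in control 4. The summed FPKM of a library lay between 654601 and 661822, so 1 FPKM equalled between 1.51 and 1.53 TPM, the unit that sums to the same total in every library. A gene with a mean of 1 FPKM or more is counted as expressed, and the median such gene had between 405 and 459 reads per library. By that rule 14174 genes were expressed, 23.8% of all in the table, and 13056 of them reached 1 FPKM in every library. Among 19922 protein-coding genes 11675 were expressed, or 58.6%, and this share is the background for the gene families below. A total of 33895 genes had a value above 0 in at least 1 control.

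The summed FPKM was concentrated in few genes. The 10 most abundant genes held 7.54 ± 0.315% of the summed FPKM, the 100 most abundant 24.9 ± 0.303% and the 1000 most abundant 56.4 ± 0.317% (SD, n = 4). It took 686 genes to reach 50%. Of the genes of the table, 1179 had means from 100 to below 1000 FPKM, and 54 had means of 1000 FPKM or more. These 54 genes alone held 19.2% of the summed FPKM. Among the 100 most abundant genes 97 were protein-coding.

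The most abundant gene was MT-CO1, which encodes a subunit of cytochrome c oxidase in the mitochondrial genome. It stood at 18291, 15229.9, 16094 and 18333 FPKM in controls 1 to 4. Controls 1 and 4 were higher than controls 2 and 3, and the lowest library still held more than 3 times the next gene's mean. The 11 mitochondrially encoded genes of the leading 30 included further oxidase subunits (MT-CO2, MT-CO3), subunits of respiratory complex I (MT-ND1, MT-ND2, MT-ND4, MT-ND5, MT-ND6), cytochrome b (MT-CYB), an ATP synthase subunit (MT-ATP6) and the large ribosomal RNA MT-RNR2. The 37 mitochondrially encoded genes together held 7.89 ± 0.387% of the summed FPKM. MT-ND6 lies on the opposite strand to its neighbours, and without a stated strand setting its 2910.4 ± 291 FPKM may include reads of them.

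**Figure D1:**
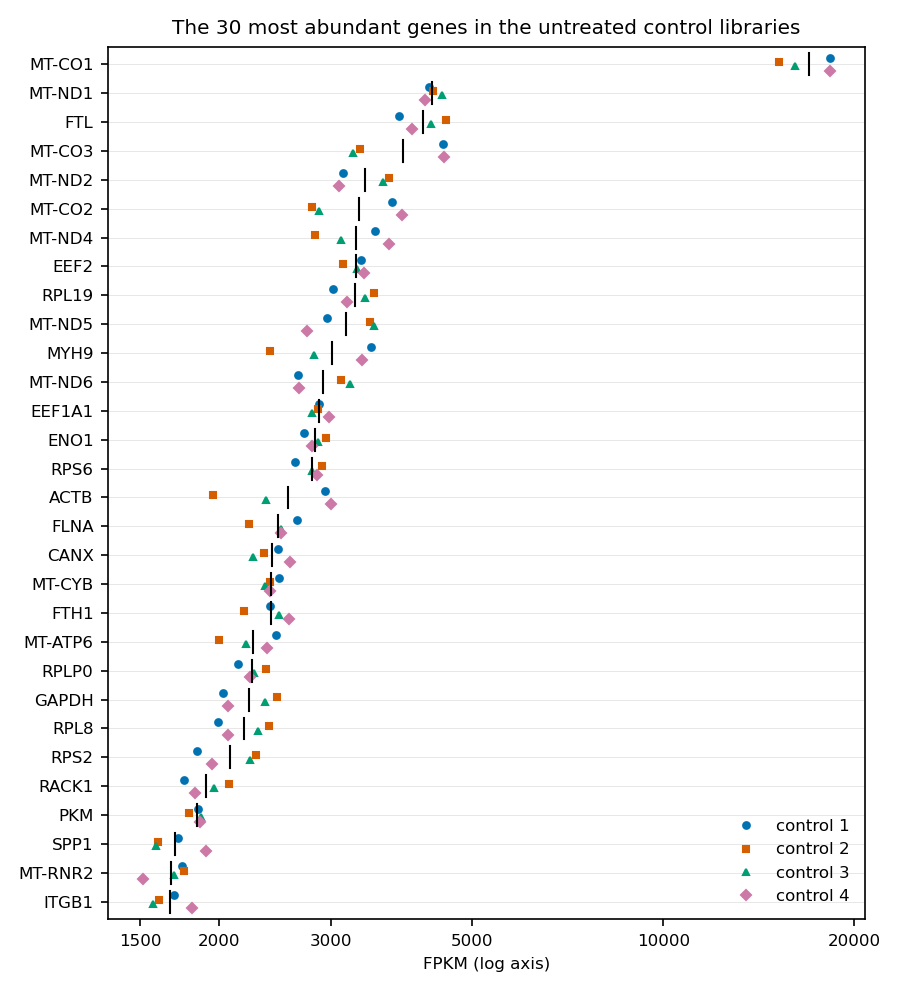
FPKM (log axis) of the 30 genes with the highest mean in the untreated controls, with 1 point per library and a black bar at the mean. MT-CO1 stands apart at 15229.9 to 18332.7 FPKM, and SPP1 is the 28th gene of the ranking.

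FTL, the light chain of the iron store ferritin, was the most abundant nuclear gene at 3842, 4550.0, 4311 and 4017 FPKM. Controls 2 and 3 were the highest here, unlike for MT-CO1. The heavy chain gene FTH1 averaged 2408 ± 165 FPKM, and the 2 chains held 1.0 ± 0.036% of the summed FPKM. Ferritin genes have many processed pseudogenes that can share their reads.

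Genes of protein synthesis held a similar share. Cytosolic ribosomal protein genes held 8.18 ± 0.585% of the summed FPKM, 81 of 85 were expressed and 29 were among the 100 most abundant genes. Their share and that of the mitochondrially encoded genes differed by less than the SD of the ribosomal share. RPL19 averaged 3273 ± 219 FPKM and RPS6 2794 ± 116 FPKM. The elongation factor genes EEF2 and EEF1A1 reached 3283 ± 110.0 and 2873 ± 74.8 FPKM, within a class of translation factors that held 1.94 ± 0.0359%. Reads of ribosomal protein genes may likewise be shared with pseudogenes.

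Glycolysis and the cytoskeleton supplied many of the other leading genes. All 17 glycolytic enzyme genes were expressed and together held 1.55 ± 0.0492% of the summed FPKM, with ENO1 (enolase) at 2828 ± 94.8 FPKM, GAPDH at 2228 ± 218 FPKM and PKM (pyruvate kinase) at 1843 ± 38.1 FPKM. Actins, tubulins, myosins and filamins held 1.96 ± 0.212%. ACTB, cytoplasmic beta-actin, stood at 2935, 1955, 2364 and 2992 FPKM. Control 2 was the lowest library, and the CV (SD over mean) of 19.3% was the largest among the 30 most abundant genes. MYH9, the heavy chain of a non-muscle myosin, was likewise lowest in control 2, at 3459, 2401, 2813 and 3349 FPKM. ITGB1, the beta-1 integrin chain shared by many matrix receptors, closed the leading 30 at 1671 ± 108 FPKM.

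Keratins of simple epithelia were among the most abundant genes. KRT8 stood at 1450.4, 1504, 1503 and 1497 FPKM and its partner KRT18 at 514, 637, 617 and 552 FPKM. KRT8 varied little between libraries, while KRT18 was higher in controls 2 and 3 than in controls 1 and 4. KRT7 (ENSG00000135480), a keratin of glandular and ductal epithelia, stood at 1061, 1066, 1088 and 1071 FPKM, a CV of 1.1%. KRT19 averaged 692 ± 27.3 FPKM. Of 22 simple-epithelium genes 16 were expressed, among them the plaque proteins JUP at 129.8 ± 12.5 FPKM and DSP at 79.8 ± 5.07 FPKM, the tight junction gene CLDN4 at 54.6 ± 1.36 FPKM, CDH1 (E-cadherin) at 42.0 ± 6.31 FPKM and EPCAM (epithelial cell adhesion molecule) at 27.9 ± 2.59 FPKM.

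The same list had a silent portion. GRHL2, a transcription factor that activates E-cadherin and junction genes, was at 0.00652 ± 0.0130 FPKM from 1 read in the 4 libraries together. RAB25, an epithelial vesicle-sorting GTPase, had 0 reads, which allows a level of up to 0.0522 FPKM when 3 reads over the 4 libraries are taken as the limit. CLDN7, ST14 (matriptase) and the splicing regulator ESRP1 were at 0.0514 ± 0.0595, 0.109 ± 0.0785 and 0.728 ± 0.175 FPKM. The other splicing regulator of this pair, ESRP2, was expressed at 12.3 ± 0.738 FPKM.

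Squamous and basal epithelium genes were mostly low, with 5 of 18 expressed. The exception in level was KRT5, a basal-layer keratin, at 419, 426, 441 and 418 FPKM in controls 1 to 4. Its usual partner KRT14 was at 0.196 ± 0.174 FPKM, and TP63, the transcription factor of basal cells, at 0.0567 ± 0.0625 FPKM. KRT80 averaged 76.6 ± 2.84 FPKM, and the cornified-envelope genes IVL and LOR had 0 reads.

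Several colon-defining genes were near 0. CDX1 had 0 reads in all 4 libraries, which allows up to 0.0258 FPKM, and CDX2 (ENSG00000165556) stood at 0.0243, 0.0228, 0 and 0 FPKM from 2 reads in total. KRT20 (ENSG00000171431), a keratin of differentiated colonocytes, stood at 0, 0.0517, 0.0537 and 0.0486 FPKM from 3 reads in total. The cell adhesion genes CDH17 and GPA33 were at 0.450 ± 0.0830 FPKM and 0 reads, the microvillus gene VIL1 (villin) was at 0.183 ± 0.0718 FPKM, and HNF4A, a transcription factor of gut and liver epithelium, was at 0.110 ± 0.0309 FPKM. None of these genes reached 1 FPKM in any control. For CDX1, CDX2, KRT20, CDH17, GPA33 and HNF4A no exon base in GENCODE 29 lies within an exon of another gene, whereas 44.0% of the exon bases of VIL1 do, so the level of VIL1 is less certain.

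Among absorptive colonocyte genes 4 of 26 were expressed, against 9 at a threshold of 0.5 FPKM and 7 when 1 FPKM was replaced by 1 TPM (FPKM rescaled to a fixed sum). With any 1 control left out the count was 5. The 4 expressed genes were ANPEP, a brush-border aminopeptidase, at 155, 124, 134 and 149 FPKM, CEACAM7 at 40.0 ± 3.75 FPKM, the sulfate transporter SLC26A2 at 28.0 ± 4.98 FPKM and the peptidase DPP4 at 3.59 ± 0.328 FPKM. CEACAM6 and CEACAM1 lay just under the threshold at 0.995 ± 0.20 and 0.993 ± 0.0813 FPKM. The fatty acid binding protein gene FABP1 and MS4A12 had 0 reads, and the carbonic anhydrase genes CA1, CA2 and CA4 stood at 0.0516 ± 0.0663, 0.523 ± 0.104 and 0.0855 ± 0.0860 FPKM. CEACAM5, which encodes the carcinoembryonic antigen, was at 0.286 ± 0.143 FPKM.

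Stem and secretory markers of the crypt were divided as well. Of 14 crypt stem cell genes 10 were expressed, led by CD44 at 418 ± 19.9 FPKM, the ephrin receptor EPHB2 at 43.6 ± 4.87 FPKM, PROM1 at 23.4 ± 0.620 FPKM, OLFM4 at 15.1 ± 0.723 FPKM and SOX9 at 13.3 ± 2.30 FPKM. LGR5, the receptor that defines crypt-base stem cells, stood at 0.135, 0.0421, 0.110 and 0 FPKM, and ASCL2, their transcription factor, had 0 reads. Of 11 goblet cell genes 5 were expressed, led by the transcription factor SPDEF at 61.5 ± 1.49 FPKM, whereas the main colonic mucin MUC2 was at 0.513 ± 0.137 FPKM and ATOH1, which specifies secretory cells, had 0 reads. None of 12 enteroendocrine genes was expressed (2 at a threshold of 0.5 FPKM), with SCG2 the highest at 0.577 ± 0.220 FPKM. Among 10 Paneth and tuft cell genes AVIL alone was, at 3.48 ± 0.657 FPKM, and 2 were at a threshold of 0.5 FPKM or on the TPM scale.

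Mucins of the gastric type were present. MUC6 (ENSG00000184956), the mucin of gastric and duodenal glands, stood at 456, 429, 449 and 324 FPKM, with control 4 the lowest. MUC5AC, the mucin of the gastric surface, averaged 42.1 ± 4.66 FPKM, and MUC5B, better known from airway and salivary mucus, 83.3 ± 9.26 FPKM. Of 13 gastric and foregut genes 3 were expressed, MUC6, MUC5AC and the tight-junction gene CLDN18 at 3.94 ± 0.752 FPKM. SOX2, the gastrokine gene GKN1 and the trefoil gene TFF1 were at 0 reads, 0 reads and 0.0498 ± 0.0996 FPKM.

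**Figure D2:**
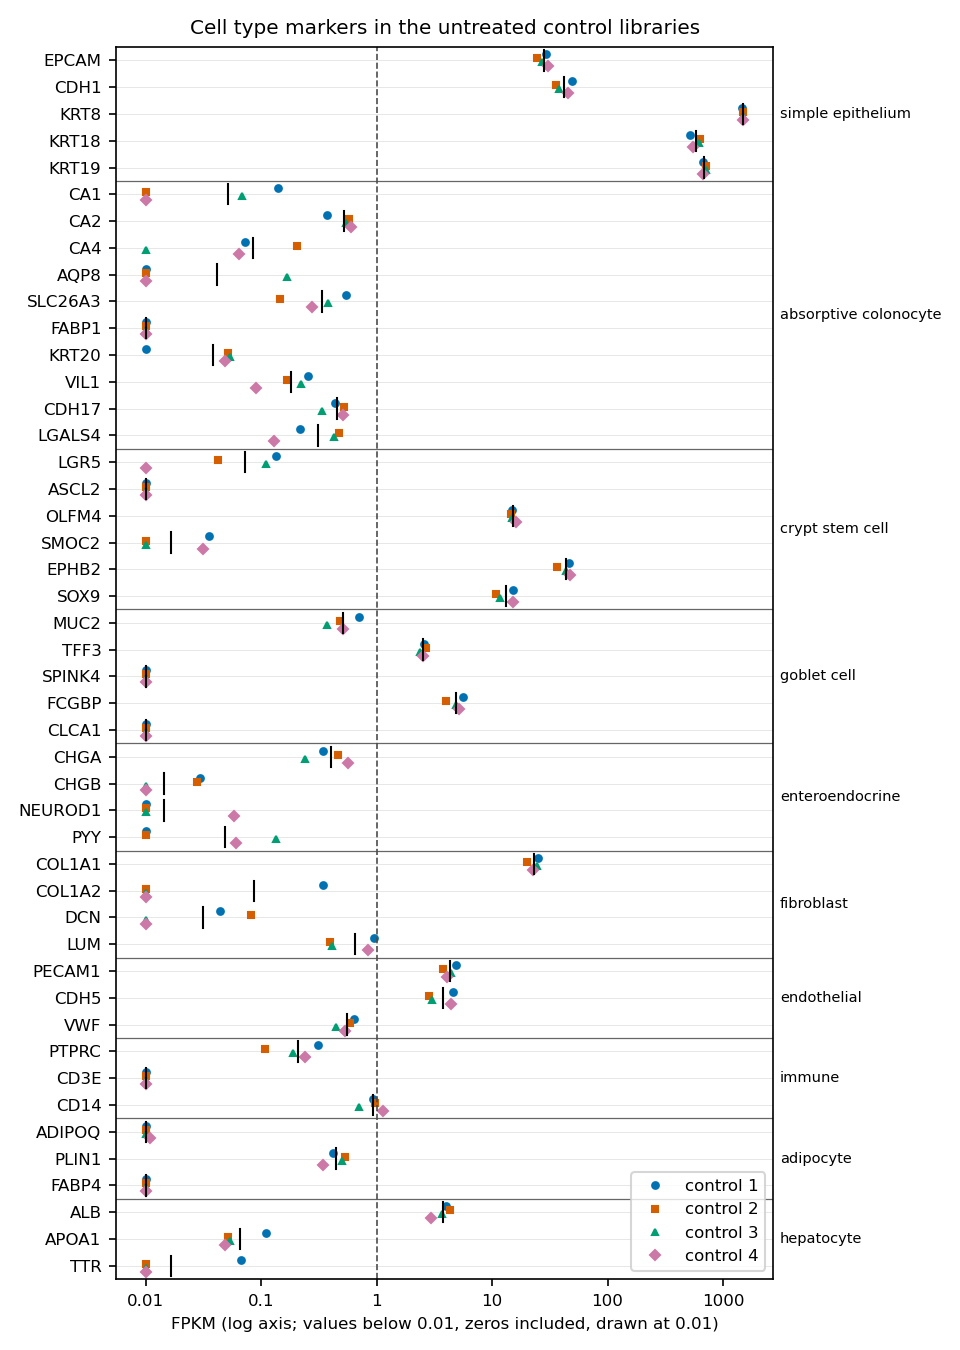
FPKM (log axis) of the marker genes of each cell type in the 4 untreated controls, with 1 point per library, a black bar at the mean, a dashed line at 1 FPKM and values below 0.01 drawn at 0.01. The 5 simple-epithelium markers drawn lie between 24.7 and 1504 FPKM and the 10 absorptive colonocyte markers drawn are all under 1 FPKM, but simple-epithelium genes under 1 FPKM, such as CLDN7, and the 4 expressed absorptive colonocyte genes are not among those drawn.

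The sequences just upstream of 3 genes are shown because the genes differ widely in level. They are the most abundant secreted product gene SPP1 and the near-silent colon genes KRT20 and CDX2. Each is the 200 bases before the gene's start, printed 5′ to 3′ on the gene's strand, from RefSeq on build GRCh38.p14, with CG dinucleotides in capitals. The locations are chr4:87975514-87975713 on the plus strand for SPP1, chr17:40885243-40885442 on the minus strand for KRT20 and chr13:27969316-27969515 on the minus strand for CDX2.
SPP1: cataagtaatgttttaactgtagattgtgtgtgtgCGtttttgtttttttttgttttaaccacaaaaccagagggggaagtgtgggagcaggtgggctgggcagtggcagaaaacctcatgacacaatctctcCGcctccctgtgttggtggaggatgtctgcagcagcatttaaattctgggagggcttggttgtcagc
KRT20: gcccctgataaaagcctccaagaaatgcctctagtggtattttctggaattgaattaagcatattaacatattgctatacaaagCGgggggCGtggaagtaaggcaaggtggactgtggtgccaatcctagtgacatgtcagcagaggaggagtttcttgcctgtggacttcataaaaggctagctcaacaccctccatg
CDX2: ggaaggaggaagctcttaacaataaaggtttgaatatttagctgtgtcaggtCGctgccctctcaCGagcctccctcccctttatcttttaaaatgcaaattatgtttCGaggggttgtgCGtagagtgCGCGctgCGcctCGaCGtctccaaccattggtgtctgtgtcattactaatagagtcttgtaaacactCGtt
SPP1 and KRT20 each have 2 CG dinucleotides in this window and CDX2 has 10, against a median of 9 over 34943 RefSeq promoter windows of the same length. A window with 2 or fewer CG was found for 26.8% of them. The motif TATAAA, searched on both strands, is in none of the 3 windows and in 8.61% of all windows. The abundant SPP1 and the near-silent KRT20 thus have the same CG number.

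Lists for other cell types were expressed in part. Of 12 hepatocyte genes 6 were expressed, with the protease inhibitor gene SERPINA1 at 24.6 ± 1.94 FPKM, the fibrinogen chains FGB, FGG and FGA at 14.1 ± 1.15, 9.15 ± 1.17 and 2.93 ± 0.219 FPKM, and ALB (albumin) at 3.95, 4.35, 3.71 and 2.94 FPKM. The plasma carrier genes APOA2 and TTR were at 0 reads and 0.0166 ± 0.0332 FPKM. Of 16 fibroblast and mesenchyme genes 4 were expressed. VIM, the mesenchymal intermediate filament vimentin, stood at 221, 234, 228 and 234 FPKM and COL1A1 averaged 23.0 ± 2.24 FPKM, but COL1A2, whose chain pairs with that of COL1A1 in type I collagen, was above 0 in control 1 alone with a mean of 0.0858 ± 0.172 FPKM. Of 10 endothelial genes 3 were expressed (5 at a threshold of 0.5 FPKM). ENG was the highest with a mean of 14.9 FPKM, followed by PECAM1 at 4.27 ± 0.478 and CDH5 at 3.72 ± 0.926 FPKM. Of 16 immune cell genes 2 were expressed, CD74 at 8.84 ± 1.11 and HLA-DRA at 4.19 ± 0.508 FPKM. PTPRC, the pan-leukocyte CD45 gene, was at 0.210 ± 0.0838 FPKM. Of 14 neuron and muscle genes 4 were, none above 10 FPKM, and 2 were with the longest transcript as the length.

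The adipose wording of the RNA protocol was set beside 10 adipocyte genes. Only PPARG, a nuclear receptor of fat cells that many epithelia also carry, at 41.9 ± 1.80 FPKM, and the lipase gene LIPE, at 2.54 ± 0.289 FPKM, were expressed, and 1 of them with the longest transcript as the length. ADIPOQ (adiponectin) was at 0.00271 ± 0.00542 FPKM, PLIN1 (perilipin) at 0.448 ± 0.0845 FPKM, and FABP4 had 0 reads, which allows up to 0.0563 FPKM.

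Among 432 transcription factor genes 260 were expressed, or 60.2%, near the 58.6% of all protein-coding genes. HIF1A, the oxygen-sensitive subunit of hypoxia-inducible factor 1, was the most abundant at 397, 408, 397 and 413 FPKM, a CV of 1.96%. Its relative EPAS1 averaged 215 ± 28.5 FPKM. SMAD3, which carries TGF-beta signals to the nucleus, averaged 246 ± 21.4 FPKM. The stress-response factors ATF4 and XBP1 averaged 216 ± 16.8 and 143 ± 4.66 FPKM, and the AP-1 subunits FOSL1 and JUND 232 ± 16.8 and 147 ± 12 FPKM. The leading 12 were completed by CEBPB, SREBF1 (a regulator of lipid synthesis), NFE2L1, ETS1 and MYC. MYC stood at 161, 112, 128 and 153 FPKM, highest in controls 1 and 4.

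Families of transcription factors differed in how many members were expressed. The AP-1, ATF and CREB family had 38 of 43 expressed, and the STAT, IRF, NF-kB and SMAD factors 25 of 29, led after SMAD3 by RELA at 120.1 ± 14.2 FPKM, STAT6 at 97.2 ± 2.46 FPKM and STAT3 at 86.3 ± 9.11 FPKM. The PAX, POU and TBX factors, mostly regulators of embryonic tissues, had 9 of 40. PAX8, a factor of kidney, thyroid and Müllerian epithelia, averaged 14.1 ± 1.06 FPKM. Of 48 nuclear receptor genes 33 were expressed, and the bile acid receptor gene NR1H4 stood at 38.5, 38.5, 39.9 and 39.5 FPKM. Of 10 regulators of the epithelial-mesenchymal transition 5 were expressed, led by SNAI2 at 30.3 ± 2.73 and ZEB1 at 20.4 ± 1.96 FPKM. The 5 include OVOL2, which opposes that transition, at a mean of 1.85 FPKM.

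Intestinal and foregut transcription factors other than CDX1, CDX2 and HNF4A were partly present, with 13 of 25 expressed. PITX1 and KLF5 averaged 42.8 ± 1.63 and 37.8 ± 4.41 FPKM, and GATA6 11.8 ± 1.74 FPKM. HOX genes, which record position along the body axis, were expressed from a single cluster for the most part. Of 10 HOXB genes 7 were expressed, with HOXB6 at 39.7, 41.2, 39.5 and 38.4 FPKM and HOXB7 at 31.2 ± 2.23 FPKM. Of 11 HOXA genes 1 was, of 9 HOXC genes 3, and of 9 HOXD genes 0, with 0.0728 FPKM the highest HOXD mean.

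Among 294 receptor genes 153 were expressed, or 52.0%, against 58.6% of all protein-coding genes. IL6ST (gp130), the signalling chain shared by the receptors of the interleukin-6 family, led at 657, 879, 852 and 648 FPKM. Controls 2 and 3 were above controls 1 and 4 without overlap. OSMR, which pairs with gp130, averaged 210.3 ± 7.62 FPKM. TFRC, the transferrin receptor that imports iron, averaged 464 ± 20.9 FPKM and F3, the tissue factor that starts coagulation, 304 ± 23.7 FPKM.

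Receptor tyrosine kinases took 5 of the 12 leading places, and 30 of 58 were expressed. EGFR stood at 331, 301, 295 and 313 FPKM, EPHA2 at 292, 211, 240.1 and 278 FPKM and MET, the hepatocyte growth factor receptor, at 190.5, 231, 208 and 189 FPKM. EPHA2 was lowest in control 2, where MET was highest. The collagen receptor DDR1 averaged 213 ± 21.5 FPKM. The 4 FGF receptors were all expressed, in the order FGFR1 at 153 ± 11.4 FPKM, FGFR4 at 51.4 ± 2.32 FPKM, FGFR2 at 25.3 ± 2.597 FPKM and FGFR3 at 8.07 ± 0.251 FPKM, with no overlap between neighbours in that order. FGFR4, the main receptor of FGF19, stood at 52.1, 47.9, 52.5 and 53.0 FPKM in controls 1 to 4. KLB, the beta-klotho co-receptor through which FGF19 acts on FGFR4, stood at 0.0740, 0.0521, 0.0632 and 0.00817 FPKM.

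Receptors of the Wnt pathway were mostly present, with 13 of 18 expressed, led by LGR4 at 147 ± 6.58 FPKM, a relative of LGR5, and the co-receptors LRP5 at 67.1 ± 8.31 and LRP6 at 44.5 ± 7.14 FPKM. Notch receptors were led by NOTCH2 at 102 ± 13.5 FPKM. Of 14 TGF-beta family receptors 11 were expressed, with TGFBR2 at 64.0 ± 5.61 FPKM. By contrast 2 of 22 chemokine receptors were, CXCR4 at 14.9 ± 1.45 FPKM and the scavenging receptor ACKR3 at 3.13 ± 0.206 FPKM.

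**Figure D3:**
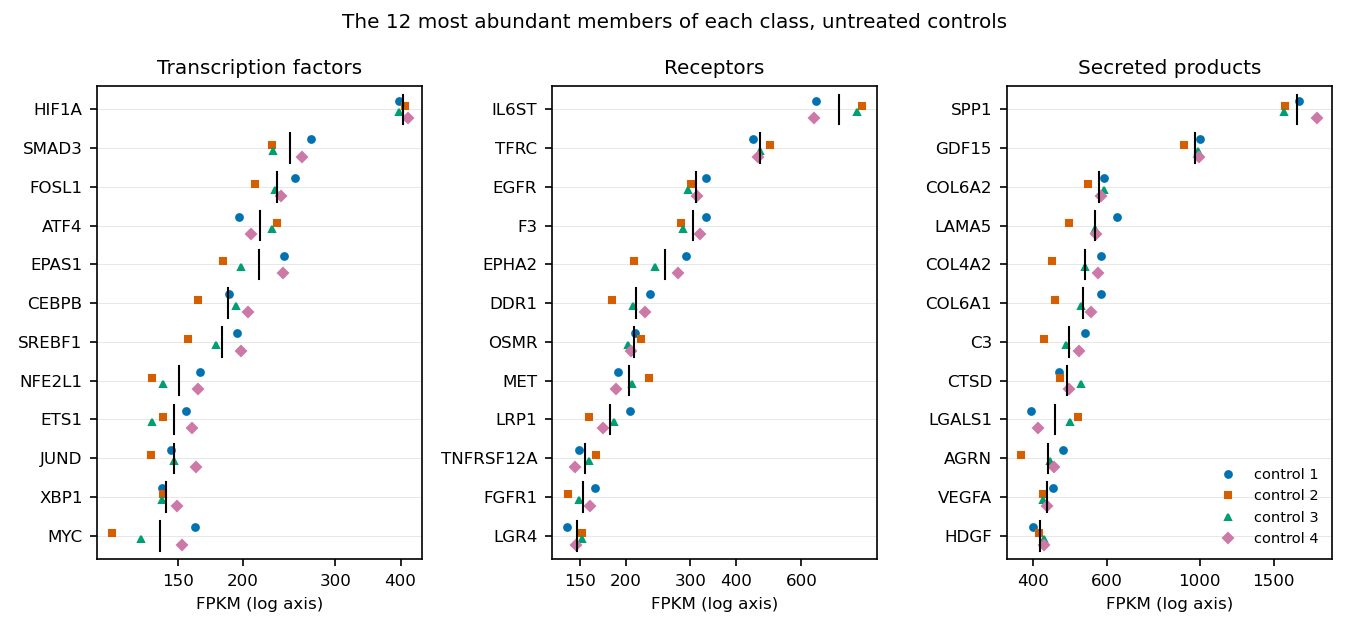
FPKM (log axis) of the 12 most abundant transcription factor, receptor and secreted product genes in the untreated controls, with 1 point per library and a black bar at the mean. HIF1A, IL6ST and SPP1 lead the 3 panels, and IL6ST shows controls 2 and 3 apart from controls 1 and 4.

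Among 482 secreted product genes 205 were expressed, or 42.5%, against 58.6% of all protein-coding genes. SPP1 (osteopontin), a secreted phosphoprotein of matrix and body fluids, was the only such gene among the leading 30 and stood at 1722, 1599, 1591 and 1906 FPKM. GDF15, a stress-induced member of the TGF-beta superfamily, averaged 975 ± 40.2 FPKM. Matrix genes followed, with COL6A2, LAMA5, COL4A2 and COL6A1 at 575 ± 24.3, 562 ± 59.5, 532 ± 62.4 and 526 ± 55.7 FPKM. LAMA5 and COL4A2 encode chains of the basement membrane. The leading 12 also held the complement gene C3 at 487 ± 47.6 FPKM, CTSD, LGALS1, AGRN, HDGF and the angiogenic factor gene VEGFA at 431 ± 11.4 FPKM. The order within a class depended on the gene length used. With the longest transcript as the length C3, LAMA5 and VEGFA were at 80.9, 80.7 and 55.3 FPKM, below CXCL8 at 243 FPKM, and 7 of the leading 12 secreted product genes, 8 of the 12 transcription factors and 10 of the 12 receptors were still among the leading 12.

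Of 43 chemokine genes 10 were expressed, 3 of them at 100 FPKM or more. These were the neutrophil attractants CXCL8 at 422, 383, 393 and 458 FPKM, CXCL1 at 291 ± 3.69 FPKM and CXCL5 at 116 ± 6.34 FPKM. Each of these 3 genes stood above CXCR4, the most abundant chemokine receptor gene, in every library. Of 53 interleukins and colony-stimulating factors 18 were expressed, led by CSF1 at 149.5 ± 19.2 FPKM, IL11 at 105 ± 3.49 FPKM, IL32 at 96.1 ± 3.66 FPKM and LIF at 85.7 ± 1.91 FPKM. IL11 and LIF both signal through gp130, whose gene IL6ST led the receptors.

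Ligands of the leading receptor tyrosine kinases differed. Of 11 EGF receptor ligands and neuregulins 7 were expressed, with AREG (amphiregulin) at 53.7 ± 2.83 FPKM, TGFA at 37.4 ± 4.84 FPKM, HBEGF at 18.1 ± 0.83 FPKM and NRG1 at 17.4 ± 1.32 FPKM. Of 21 genes for FGF ligands and secreted FGF-binding proteins, 1 was expressed, the binding protein gene FGFBP1 at 3.14 ± 0.354 FPKM. FGF19 itself stood at 0.230, 0.324, 0.0897 and 0.122 FPKM, under 1 FPKM in every library. Of 35 Wnt ligands and extracellular inhibitors 9 were expressed, led by WNT5A at 72.0 ± 2.95 FPKM, the inhibitor gene DKK1 at 61.5 ± 3.70 FPKM and WNT7B at 31.8 ± 2.32 FPKM.

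Regulators of growth were read at the level of RNA, which says nothing of their alleles. CTNNB1 (beta-catenin), the nuclear effector of Wnt signalling, averaged 110.3 ± 17.1 FPKM. The cell cycle inhibitor genes CDKN2A and CDKN1A averaged 81.3 ± 6.95 and 26.7 ± 0.354 FPKM. CDKN1A ranged narrowly, from 26.3 to 27.2 FPKM.

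The 4 libraries were close to each other, and they fell into 2 pairs. Over the expressed genes the median CV was 9.31%, where counting of reads alone gives a median of 4.82%, and 7626 genes, or 53.8%, had a CV under 10%. The median CV was 21.5% for genes from 1 to 3 FPKM, 7.57% from 10 to 30 FPKM and 6.41% at 300 FPKM and above. Pearson correlations of log2(FPKM + 1) between libraries lay between 0.988 and 0.993 across genes, which are not independent replicates. The median absolute log2 difference was 0.092 between controls 1 and 4 and 0.10 between controls 2 and 3, against 0.13 to 0.17 for the other 4 pairings. Controls 2 and 3 held the 2 highest values for 29.96% of expressed genes and controls 1 and 4 for 26.2%, against 9.46% to 12.6% for the other pairings. The first principal component, with 52.1% of the variance, placed controls 1 and 4 at 11.5 and 16.6 and controls 2 and 3 at -17.9 and -10.2. The labels name no batch, and what sets the pairs apart was not tested.

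Gene classes took part in this split to different degrees. The classes below are examples from a longer set of classes and lists, and some rest on few genes. Over all 14174 expressed genes, 3718 were highest in controls 1 and 4 and 4247 in controls 2 and 3. Of 81 expressed cytosolic ribosomal protein genes, 61 had their 2 highest values in controls 2 and 3, and 2 had them in controls 1 and 4. Of 21 expressed heat shock protein genes 12 were highest in controls 1 and 4 and 3 in controls 2 and 3. Among expressed transcription factors of the SOX family 4 of 7 were highest in controls 1 and 4 and 0 in controls 2 and 3. Simple-epithelium genes were divided evenly, with 7 of 16 highest in controls 1 and 4 and 6 in controls 2 and 3.

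**Figure D4:**
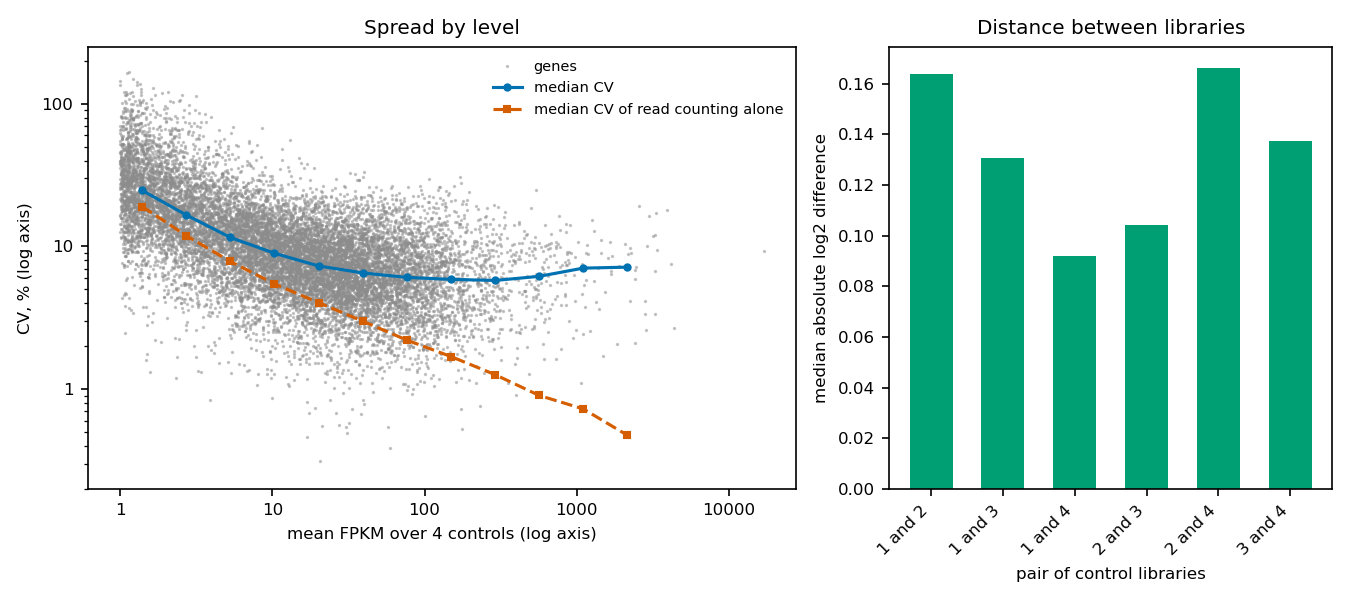
Left, the CV over the 4 untreated controls against mean FPKM (both log axes) for each expressed gene, with the medians of the CV and of the CV that read counting alone gives. Right, the median absolute log2 difference between each pair of libraries, smallest for controls 1 and 4 (0.092) and controls 2 and 3 (0.10).

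The steadiest and least steady genes were of different kinds. Among genes with a symbol and at least 10 FPKM the smallest CV was that of TBRG1, at 20.3, 20.5, 20.5 and 20.4 FPKM or 0.313%, followed by LIMS1 (a focal adhesion adaptor), USP16 (a deubiquitinase) and ARFIP1. The splicing factor gene SRSF2 at 31.8 ± 0.186 FPKM and ANP32B at 175 ± 0.914 FPKM were also among the 10 steadiest. Counting of reads alone gives a CV of 3.61% for TBRG1, so the order among the steadiest genes is within counting error. The 10 largest CVs belonged to non-coding or antisense genes, led by ALG13-AS1 at 10.1, 22.2, 14.6 and 5.09 FPKM or 55.8%, MIR186, AC015849.3 and MIR30C2. Of these 10 genes, MIR4292 alone was not highest in controls 2 and 3. The libraries were poly(A)-selected, so a microRNA gene's value here cannot be read as the level of its mature microRNA.

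Levels between genes depended on the gene models. The length that turned FPKM into whole reads equalled the mean length of a gene's GENCODE 29 transcripts within 1 base for 13976 of 14002 expressed genes with an annotated transcript, or 99.8%. The longest transcript was a median of 2.0 times as long as that mean, and 3 or more times as long for 2574 genes. For MYH9 the deposited model was 1208 bases and the longest transcript 7554 bases, and with that length its mean level would be 481 FPKM in place of 3006. For KRT7 the lengths were 602 and 1754 bases, and for MUC6 2405 and 8006 bases. With the longest transcript as the length, a choice made after seeing the data, 26 of the 30 and 81 of the 100 most abundant genes stayed among them. Spearman's rho of the levels under both lengths was 0.956 across genes.

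Overlapping annotation also went with low values. Of 20 listed genes with 60% or more of their exon bases inside exons of another gene 2 were expressed. Expressed genes were 32 of 80 from 20% to under 60%, and 633 of 1251 under 20%. These groups were not matched for the kind of gene. A high share did not always go with a low value, as CTSD, with 52.7% shared, averaged 483 FPKM. MIF, a cytokine gene of most cell types, was singled out after its value was seen and was listed at 0.724 ± 0.304 FPKM, with 61.9% of its exon bases shared. CD68 and the adipocyte-list gene ADIRF, with 85.8% and 100% shared, were at 0.0103 ± 0.0206 FPKM and 0 reads. ADIPOQ shares 46.2%. Whether shared reads set these values was not tested, and they are not read as absence.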

How the data were processed

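The authors deposited a table of FPKM with 1 column per library. HISAT2 2.0, StringTie 1.3.0 and the genome build hg19 are listed, per the submitters' processing notes, without their roles. How reads were counted, with which annotation, strand setting and filters, is not given in the sources used here. Of the table's 59641 rows, 965 have no symbol or Ensembl identifier, and 172 of these reached 1 FPKM.

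Reads behind the FPKM values were recovered from the whole-number steps of low values. All 8 libraries were used to solve the read totals and gene lengths, and for nothing else. Within 0.001 reads, 99.9963% of the control values above 0 were whole, and the recovery was tested on simulated data. Reads are not independent molecules, so counting spread and the limits from 0 reads cover counting error only.

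Genes were described by mean control FPKM, with Python 3.11.15, numpy 2.4.6, pandas 2.3.3 and scipy 1.17.1. No groups were compared and no test of a difference was run. Single libraries apart from the other 3 were looked for with Dixon's criterion. The 52 gene lists hold 1344 genes, all found in the table. Members and lists were chosen with earlier results of these data known. Named genes were the 30 most abundant, the 12 most abundant of each class, up to 4 expressed members of each list, lineage markers, the 10 largest and 10 smallest CVs at 10 FPKM or more, and a set fixed by name. Gene types, transcript lengths and exon overlaps came from GENCODE 29. Promoter features by level are not given, since only 78.1% of protein-coding symbols matched the RefSeq table, under the 80% set for such a check. Protein features are not used here. Some genes of the fixed set are not reported here.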

Additional observations from a re-analysis of the deposited data

Results flagged for a closer look

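Dixon's criterion at 95% was applied to 271 groups of 4 library values. These were the expressed genes named by the rules above, the total reads, the share of the 100 most abundant genes and the number of expressed genes. For 11 of the groups, all of them genes, 1 control library lay apart from the other 3. Chance flags about 1 in 20 groups, or 13.55 of 271, so the number of such genes is no more than chance gives.

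Control 2 was the library apart for 6 of them. It was the lowest for LGALS3BP at 309.7 FPKM (325.5 to 327.4 in the others), for KRT80 at 72.4 FPKM (77.7 to 78.5), for the proliferation factor gene FOXM1 at 42.1 FPKM (51.1 to 52.5) and for HOXB9 at 24.2 FPKM (27.0 to 27.2). It was the highest for ZEB1 at 23.3 FPKM (19.1 to 19.8) and for AVIL at 4.46 FPKM (3.03 to 3.27). Control 4 was the highest for XBP1 at 149 FPKM (139.8 to 140.6), CXCL5 at 125 FPKM (112 to 114) and HOXB2 at 27.8 FPKM (22.3 to 22.5). Control 1 was the lowest for KRT8 at 1450.4 FPKM (1497 to 1504), and control 3 the lowest for the junction gene TJP1 at 62.7 FPKM (70.3 to 71.6). None of these gaps moves a gene across 1 FPKM.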

How the results depend on the processing

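No paired analysis was possible because the results come from no test and the controls are not compared with another group. Expressed genes, and the counts of transcription factor, receptor and secreted product genes, stayed within 1.5 times under every alternative tried. Leaving out 1 control gave 14065 to 14287 expressed genes, 7.45% to 7.65% of FPKM in the 10 most abundant genes, 24.8% to 25.0% in 100 and 56.3% to 56.5% in 1000.

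Small marker lists moved. With a mean of 0.5 FPKM as the threshold, expressed absorptive colonocyte genes were 9, enteroendocrine 2, Paneth and tuft 2 and endothelial 5. After scaling to TPM, absorptive colonocyte genes were 7 and Paneth and tuft genes 2. With the longest transcript as the length, added after seeing the data, adipocyte genes were 1 and neuron and muscle genes 2. The 10, 100 and 1000 most abundant genes then held 14.5%, 33.2% and 60.7%. Without mitochondrially encoded genes they held 4.94%, 20.1% and 53.0%.

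The median CV was 10.1% after TPM scaling, 6.86% at 10 FPKM or more, 38.5% with no filter, and 7.91% to 9.46% with 1 control left out, lowest without control 2. The median SD of log2(FPKM + 1), 0.12, was 0.13 after TPM scaling, 0.13 with a pseudocount of 0.1, 0.0956 at 10 FPKM or more, and 0.10 to 0.12 with 1 control left out. With the longest transcript as the length 263 of 411 named means moved by more than their SD. Depth limits genes under 3 FPKM, with a median of 36 reads.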

Other observations

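Long non-coding and pseudogene transcripts were a minor part of the untreated controls. Of 7629 lincRNA genes 462 were expressed, of 5583 antisense genes 528, and of 10189 processed pseudogenes 383, against 11675 of 19922 protein-coding genes. The 55 keratin genes as a group held 0.690 ± 0.0190% of the summed FPKM from 12 expressed members, the 57 collagen and laminin genes 0.590 ± 0.0453% from 26, and the 17 mucin genes 0.0863 ± 0.0119% from 5 (SD, n = 4). Heat shock protein genes held 0.928 ± 0.0598% and cathepsin genes 0.169 ± 0.00626%.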
